A study of Saccharomyces cerevisiae with 25 samples.

Results

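The mitochondrial ribosomal protein genes of budding yeast were followed through 6 h of phosphate withdrawal. They were chosen by name: 69 names begin with MRPL, MRPS, MRP, RSM, YML or IMG followed by digits only, and 67 of these had a value in at least 20 of the 24 libraries without phosphate. These 67 members stood among 5383 genes with a value in at least 1 library, and all 67 were among the 4343 genes tested. MRPL1 (values in 17 of the 24 libraries) and MRPL4 (11) did not meet the limit on values, and YML6 (20) lay just inside it. By their known roles, 38 members encode proteins of the large subunit and 27 of the small subunit. The name rule also took in RSM22, a methyltransferase-like protein that associates with the small subunit, and MRP8, which is no longer counted as a ribosomal protein.

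The cells were of the laboratory strain BY4741, carried a YFP reporter under the PHO84 promoter and overexpressed PHO90, which encodes a phosphate transporter of low affinity. All libraries share this genotype, so no strain without the overexpression was compared, and the sources used here do not name the promoter behind it. Total RNA was sequenced from 1 library in high phosphate (0 min) and from 24 libraries taken after a wash and a move to phosphate-free medium, 1 every 15 min from 15 to 360 min. The no-phosphate libraries were grouped into 3 windows of 8 libraries each, the early one from 15 to 120 min, the middle one from 135 to 240 min and the late one from 255 to 360 min. No time point was replicated and nothing in the labels points to separate cultures, so libraries of a window stood in for replicates, and p-values measure only the spread between them and assume that they are independent.

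Mitochondrial ribosomes make a handful of hydrophobic proteins of the respiratory chain and the ATP synthase from mitochondrial DNA. Nearly all of their protein subunits are encoded in the nucleus, made on cytosolic ribosomes and imported. Some descend from bacterial ribosomal proteins and others were gained in the mitochondrial lineage. The RNA-binding protein Puf3 is known in this yeast for binding a short element in the 3′ UTRs of many nuclear mRNAs for mitochondrial proteins, mitoribosomal ones above all, and for controlling their decay and translation.

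All ribosomal proteins among the members shared that element. The Puf3-type motif TGTANATA was searched on the sense strand in the 200 bases after each stop codon of the RefSeq R64 annotation. It was present in 65 of 67 members (97.0%) against 697 of 4268 tested genes matched to the annotation (16.3%). The members without it were RSM22 and MRP8, and MRPL1 and MRPL4, too sparsely listed to be tested, both had it, so that it was found in 67 of 67 ribosomal protein names under the rule. On the opposite strand the motif occurred in 19.4% of members and 14.6% of all genes. Shown here are the sites of some members with high or low late minus early differences described below and of those with the largest upward steps from 0 min. The sites of MRPL4 and MRPL1 (the first of 2 sites of MRPL1) are added. Each is given with 8 bases of flank, 5′ to 3′ on the gene's own strand of build R64, with the motif in capitals.
RSM10, chrIV:540465-540488, plus strand: ttcgtactTGTAAATAaaataggt
MRP51, chrXVI:327700-327723, plus strand: cagagttcTGTAAATAaataaaga
MRPL13, chrXI:450361-450384, minus strand: taatatccTGTACATAtatatact
MRP13, chrVII:647067-647090, minus strand: aacataccTGTAAATActaaaaag
RSM26, chrX:619114-619137, plus strand: ttatatacTGTAAATAgttttatt
MRPL39, chrXIII:251210-251233, minus strand: atttatccTGTAAATAagtaatgg
MRPS8, chrXIII:572764-572787, plus strand: acggaccaTGTAAATAataatatt
RSM7, chrX:638195-638218, minus strand: aacttgccTGTACATAaacacatt
YML6, chrXIII:224310-224333, minus strand: aaataatcTGTAAATAataagccc
MRPL25, chrVII:637011-637034, minus strand: tctaatcaTGTAAATAattttgtg
MRPL4, chrXII:1015470-1015493, plus strand: ctctctccTGTAAATAtatatata
MRPL1, chrIV:682671-682694, minus strand: tttttaatTGTATATAtatatata

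The 65 members held 78 such sites, of which 53 members had 1, 11 had 2 and 1 had 3. The first base of the first site lay a median of 51 bases after the stop codon (range 8 to 139), and 61 members (91.0%) had a site within 100 bases, against 12.5% of all tested genes. At the free position of the motif 36 sites had A, 25 had T, 16 had C and 1 had G. A C stood 2 bases before the motif in 51 of 78 sites (65.4%), as in the sites of RSM10, RSM7 and MRPL39 above. No site lay inside another annotated gene. A match is a description of these letters and does not show binding in these cells.

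The motif also marked other parts of the mitochondrial translation apparatus. The counts cover tested genes only, and genes of the lists with too few values were left out. The motif was found in 8 of 9 mitoribosomal proteins with other names and 11 of 14 mitochondrial translation factors. It was also found in 7 of 7 mitochondrial aminoacyl-tRNA synthetases and 10 of 12 translational activators. It was rare after the genes of the complexes that these ribosomes serve, with 11.8% of 34 nuclear genes for respiratory chain and ATP synthase subunits, and after cytosolic ribosomal protein genes (4.41% of 136). The Puf4-type motif TGTANANTA showed another distribution, with 1.49% of members, 51.3% of 76 ribosome biogenesis genes and 8.41% of all genes.

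Upstream, elements known from the promoters of ribosome biogenesis genes were counted. In the 250 bases before and 50 after the start codon, on both strands, the rapid growth element AATTTT was present in 43.3% of members, 98.7% of ribosome biogenesis genes and 54.4% of all genes. The PAC core GATGAG was present in 16.4% of members, 93.4% of ribosome biogenesis genes and 20.4% of all genes. Both member shares lay below the genome-wide share.

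**Figure D1:**
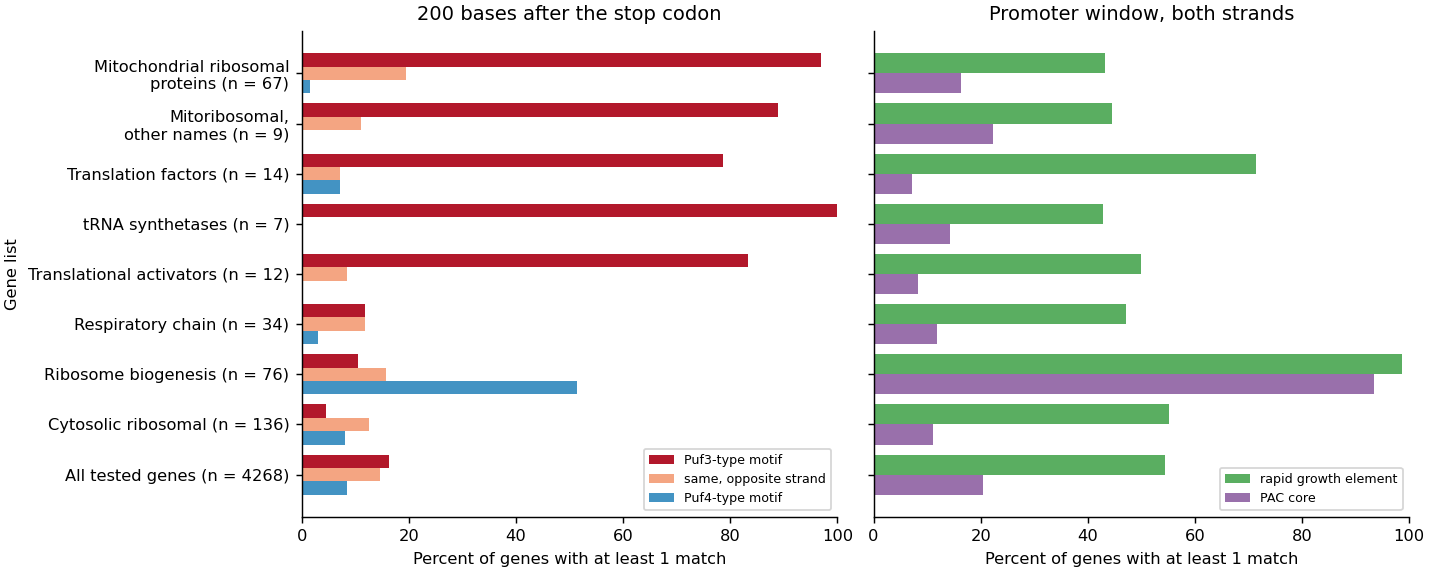
Percent of genes in each list (n in the row label) with at least 1 match to the Puf3-type or Puf4-type motif in the 200 bases after the stop codon (left) and to the rapid growth element or PAC core in the promoter window (right). The bar of the mitochondrial ribosomal proteins reaches 97.0% for the Puf3-type motif, against 16.3% of all tested genes. The ribosome biogenesis genes stand out for the Puf4-type motif, the rapid growth element and the PAC core. Bars are also drawn for the Puf3-type motif on the opposite strand.

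Libraries held between 450744 and 2271193 reads in listed genes (median 1005706), and a gene with fewer than 15 reads in a library has no value there. The values were log2 reads per 1000000 listed reads (log2 RPM), which makes them shares of each library, and cytosolic ribosomal protein genes took 40.1% of reads at 0 min and 6.80% at 300 min. The median tested gene shifted by 0.28 (log2) from early to middle, 0.18 from middle to late and 0.45 from early to late. The cause of this shift was not tested. Most directions are also given with libraries centred on their median gene, and some with RPM scaled to the reads outside cytosolic ribosomal protein genes. Others are given in deposited log2 RPM only, and their direction under the other scalings is not stated. PHO90 lay between 10.68 and 12.40 log2 RPM. Of the mating-type genes, the a-specific MFA1, MFA2 and STE2 had values in all 25 libraries, the alpha-specific MF(ALPHA)1 in 2 and MF(ALPHA)2 and MATALPHA1 in 0, and the alpha-specific STE3 in 22 (4.01 to 5.61 log2 RPM).

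Compared per coding length, mitoribosomal mRNAs were far less abundant than cytosolic ribosomal protein mRNAs. The median member level was 6.49 log2 RPM per kb at 0 min, 6.79 early, 6.92 middle and 7.05 late, against 12.38, 12.05, 10.90 and 10.11 for the 136 cytosolic ribosomal protein genes and 5.75, 5.69, 6.01 and 6.21 for all genes. Within the members the early levels per kb ran from 4.32 for RSM22 to 9.62 for MRPS16, the counterpart of bacterial S16. RSM23, MRPL3 and RSM22 had the lowest levels per kb in both the early and the late window, and MRPS16 the highest in both. This order depends on the division by coding length, which was 1353, 1173 and 1887 bases for those genes and 366 for MRPS16. Without it, the mean over the no-phosphate libraries was lowest for YML6 (4.82 log2 RPM) and highest for MRP8 (8.50). Large-subunit and small-subunit members had medians of 6.72 and 6.95 log2 RPM per kb early, a gap that is small beside their spread over genes (SD 1.19 and 1.39).

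In high phosphate the members together took 0.490% of reads (4775 of 974855, Wilson 95% interval 0.476 to 0.504%, counting error only). Their share was 0.587 ± 0.0489% early (mean and SD over libraries, n = 8), 0.663 ± 0.0628% in the middle window and 0.744 ± 0.0485% late. Of the reads outside cytosolic ribosomal protein genes, however, they took 0.817% at 0 min, 0.895 ± 0.0906% early, 0.797 ± 0.0247% in the middle window and 0.822 ± 0.0502% late, with the highest share (1.05%) at 15 min and the lowest (0.750%) at 360 min. The order of the windows thus depended on the denominator. In bulk RNA, fewer cells that express a gene and less RNA per cell cannot be told apart.

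**Figure D2:**
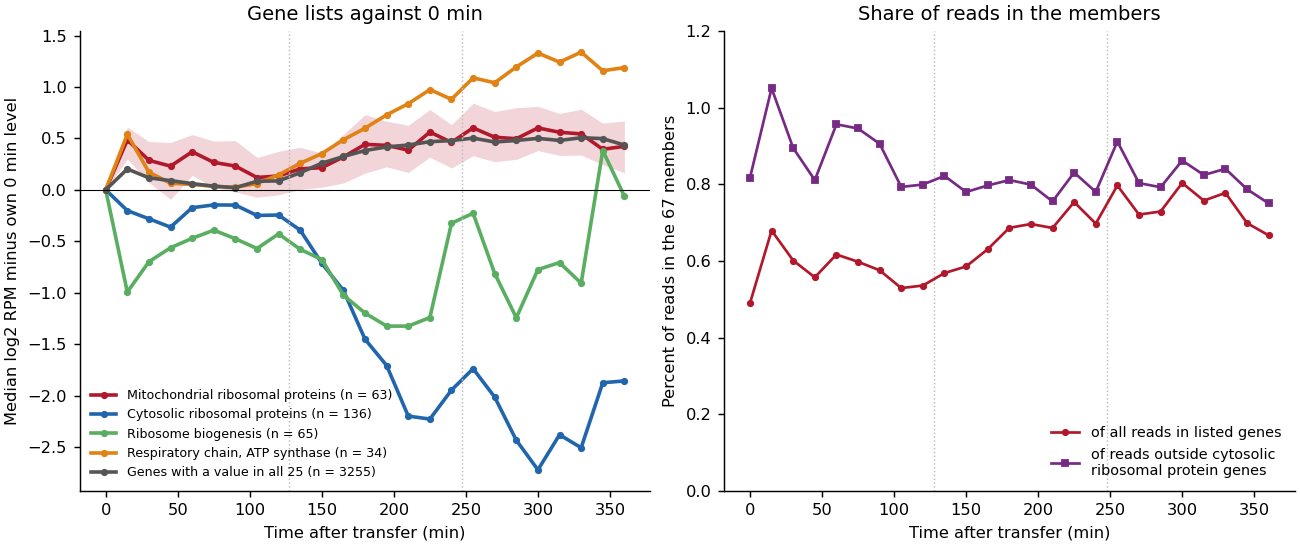
Left, median log2 RPM minus each gene's own 0 min level, over genes with a value in all 25 libraries (n in the legend), against time after transfer; the band is the quartile range of the mitochondrial ribosomal proteins and dotted lines separate the windows. Right, the percent of reads in the 67 members, which was higher late than early over all reads (0.744% against 0.587%) and lower late than early over reads outside cytosolic ribosomal protein genes (0.822% against 0.895%).

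The first step after transfer was upward for most members. The early median lay above the 0 min level for 57 of 67 members, against 57.3% of all genes, with a median difference of 0.24 (log2) against 0.07 for all genes. This held as a median of 0.19 with centred libraries and 0.12 with reads scaled outside cytosolic ribosomal protein genes. A difference of at least 0.5 upward was reached by 15 members (22.4%; all genes 12.8%) and one of at least 0.5 downward by 1 member (all genes 6.39%). The 0 min level lay below all 8 early libraries for 30 members (44.8%; all genes 24.7%) and above all of them for MRPL13 and MRPL10 (2.99%; all genes 15.9%; MRPL10 was picked after its values were seen). There was 1 library at 0 min, so these differences carry no test, and the wash and the change of medium cannot be told apart from the loss of phosphate.

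The step was present in the first library. Over the 63 members with a value in all 25 libraries, the median difference from 0 min was 0.48 at 15 min. At that time 58 members lay above their 0 min level. The median difference was then 0.29 at 30 min, 0.23 at 45 min, 0.37 at 60 min and 0.12 at 105 min. All genes with complete values had medians of 0.20 at 15 min, 0.06 at 60 min and 0.08 at 105 min, so that the members stood 0.28, 0.31 and 0.04 above them. At 30 and 45 min the members stood 0.17 and 0.14 above them. The 15 min library was the shallowest of the series (450744 reads), and its part in the step was not tested. Without it the median member difference from early to 0 min was 0.20.

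YML6, the counterpart of bacterial L4, had 15 reads at 0 min (3.94 log2 RPM, exact Poisson 95% interval 3.11 to 4.67), which is the reporting floor. Its early libraries lay between 4.44 and 5.06, with a median of 4.95, a difference of 1.01 (all genes with at least 1 upward, 2.18%). The highest of them, at 15 min, was at the floor of that library. RSM7, the counterpart of bacterial S7, had 5.62 log2 RPM at 0 min (interval 5.18 to 6.03) and 6.11, 6.38 and 6.50 as the lowest, median and highest early level. Both genes were below all of their early libraries at 0 min. MRPL25, a protein without a bacterial counterpart, was at 5.36 (4.87 to 5.80) at 0 min and at 5.57, 6.08 and 6.44 early, again without overlap. MRPS8, the counterpart of bacterial S8, was at 5.43 (4.96 to 5.86) and then at 5.92, 6.10 and 6.33. For all 4 genes the early median lay above the interval of the 0 min count. YML6, RSM7 and MRPL25 were named for the largest upward steps, and MRPS8 for differences that use the same early libraries. The position above the interval is therefore no separate support for a step.

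The early median lay below the 0 min level for 10 of 67 members (all genes 1766 of 4133). These were 4 of 40 members with a bacterial counterpart and 6 of 25 without one, a split that was not tested. The 3 with the largest downward steps are all mitochondria-specific, as is MRPL25, which had a large upward step. MRPS35, of the small subunit, had 5.99 log2 RPM at 0 min (interval 5.61 to 6.35) and 4.90, 5.43 and 6.19 as the lowest, median and highest early level. MRPL13, of the large subunit, had 5.53 (5.07 to 5.95) at 0 min and 4.75, 5.14 and 5.40 early. MRP13, of the small subunit, had 5.28 (4.79 to 5.74) and then 4.63, 4.92 and 5.32. The early median was 0.56, 0.39 and 0.36 below 0 min for MRPS35, MRPL13 and MRP13. It lay below the interval of the 0 min count for MRPS35 and inside that interval for MRPL13 and MRP13. The 3 genes were named for these same differences, so the position of MRPS35 below the interval is no separate support for a step. Of these 3 genes MRPL13 alone lay above all early libraries at 0 min.

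From early to late the median difference of the members lay below that of all genes. In deposited log2 RPM, 32 of 67 members rose (limma, adjusted p under 0.05; 63.8% of all genes) and 2 fell (7.32% of all genes). Rises of at least 1 (log2) were made by 2 members, RSM10 and MRP8 (all genes 13.8%), and no member fell by as much (all genes 3.41%). The median difference was 0.29 for members and 0.45 for all genes. With centred libraries it was −0.17, with 4 members higher (5.97%, all genes 25.3%) and 25 lower (37.3%, all genes 25%). Scaled to reads outside cytosolic ribosomal protein genes it was −0.17, with 4 higher (5.97%, all genes 24.6%) and 27 lower (40.3%, all genes 24.9%). With centred libraries 16 members had a difference above 0 and 51 below.

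**Figure D3:**
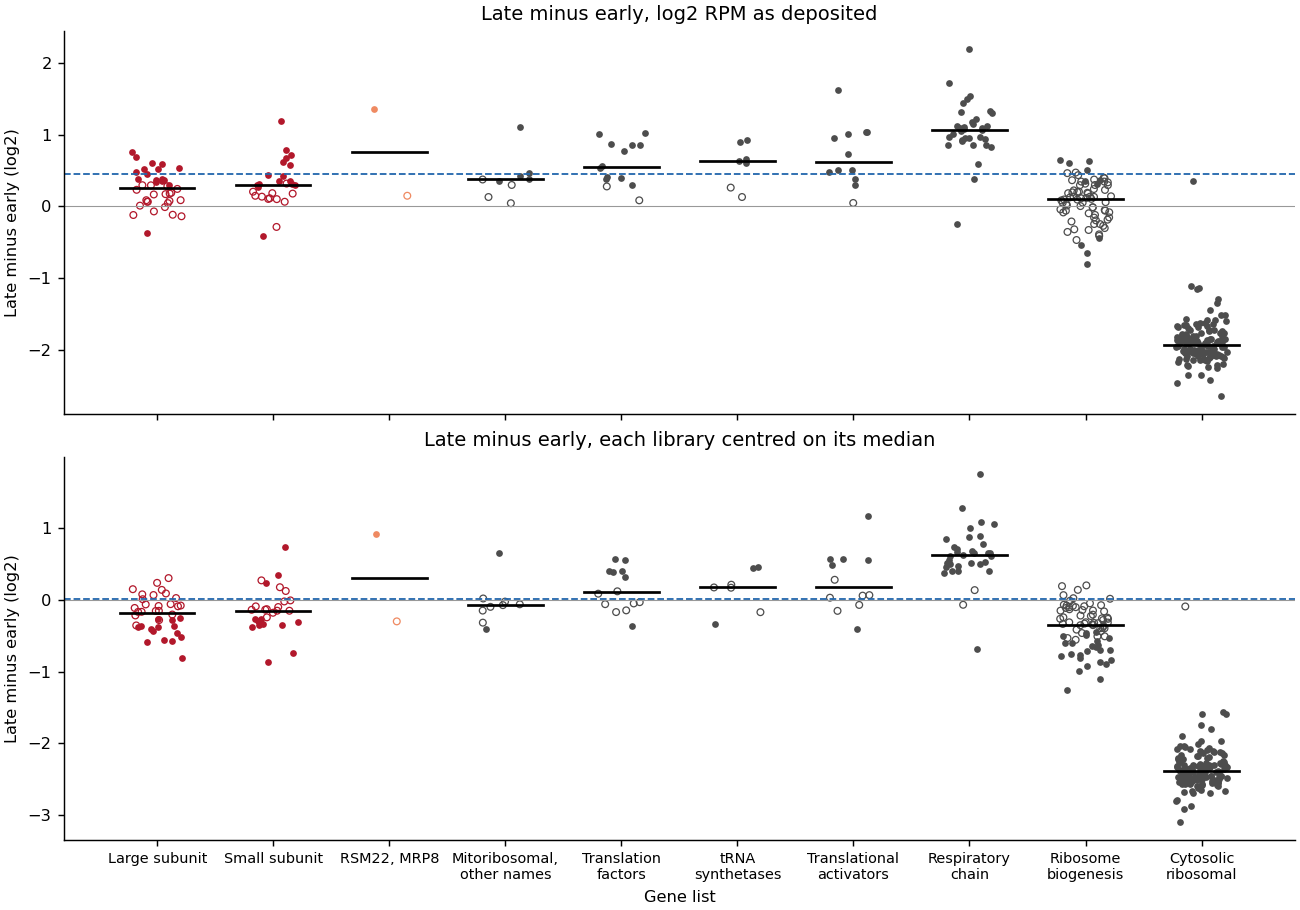
Late minus early difference (log2) of each gene by list, in log2 RPM as deposited (top) and with libraries centred on their median (bottom); filled points passed limma at an adjusted p under 0.05, black bars are list medians and the dashed line is the median of all tested genes. The median of all 67 members is 0.29 in the top panel, under the 0.45 of all genes, and −0.17 in the bottom panel, between the respiratory chain (1.07 and 0.62) and the cytosolic ribosomal proteins (−1.93 and −2.38).

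Both subunits had medians below that of all genes. In deposited log2 RPM, 16 of 38 large-subunit members rose and 1 fell, with a median of 0.26, and 15 of 27 small-subunit members rose and 1 fell, with a median of 0.30 (all genes 63.8% higher and 7.32% lower). With centred libraries the medians were −0.19 and −0.15. Of 38 large-subunit members 0 were higher and 15 lower, and of 27 small-subunit members 3 were higher and 10 lower. Of all genes, 25.3% were higher and 25% lower. Members with a bacterial counterpart (40) had a median of 0.25 and those without one (25) a median of 0.30, against −0.20 and −0.15 when centred. These splits were not tested against each other.

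RSM10, the counterpart of bacterial S10, departed most among the ribosomal proteins. It had 6.92 log2 RPM at 0 min, 6.85, 7.16 and 7.40 as the lowest, median and highest early level, 7.29, 8.09 and 8.42 in the middle window and 7.85, 8.40 and 8.59 late. Late and early libraries did not overlap. The late minus early difference was 1.19 ± 0.13 (SE; limma adjusted p = 9.02e-09), a 2.28-fold rise, and it was 0.74 with centred libraries (adjusted p = 4.7e-06) and 0.72 outside cytosolic ribosomal protein reads. Its fitted spline ran from a minimum at 75 min to a maximum at 270 min. The late minus middle difference of RSM10 (limma adjusted p = 0.0426) lost its call when any 1 of 8 single libraries was left out, with adjusted p up to 0.106. This difference did not pass when centred (0.18; limma adjusted p = 0.332) or outside cytosolic ribosomal protein reads (0.24; adjusted p = 0.145).

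MRP51, a small-subunit protein known for its part in the translation of COX2 and COX3 mRNAs, was at 6.64 log2 RPM at 0 min and had a median of 6.59 early, 7.02 in the middle window and 7.47 late. Its highest early library (7.08) lay below its lowest late library (7.34). The difference was 0.79 ± 0.09 (SE; limma adjusted p = 8.74e-09), 0.34 when centred (adjusted p = 0.0011) and 0.32 outside cytosolic ribosomal protein reads (adjusted p = 0.0034). MRPS16, named here after its values were seen, had early levels of 7.99 to 8.50 and late levels of 8.69 to 8.98, with a difference of 0.68 ± 0.10, or 0.23 when centred (limma adjusted p = 0.0215) and 0.21 outside cytosolic ribosomal protein reads (0.0496). With MRP8 these made the 4 members that were higher under all 3 scalings, and 3 of them belong to the small subunit. MRPL23, named for the same reason, was the fifth member whose late libraries all lay above its early ones in deposited RPM (5 members, 7.46%; all genes 28.2%), with a difference of 0.54, or 0.088 when centred.

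MRP8, which is no ribosomal protein and has no Puf3-type motif in the window searched, rose most. It had 7.03 log2 RPM at 0 min, a median of 7.62 early (7.25 to 8.39), 8.81 in the middle window (8.04 to 9.18) and 9.10 late (8.65 to 9.39). Late and early libraries did not overlap. The difference was 1.36 ± 0.16 (SE; limma adjusted p = 2.4e-08), a 2.56-fold rise, and 0.91 when centred. RSM22, the other member without the motif, had medians of 5.22, 5.22 and 5.33 in the 3 windows, with a difference of 0.15 (adjusted p = 0.314), or −0.30 when centred and −0.32 outside cytosolic ribosomal protein reads.

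Other members rose in deposited RPM but did not pass the late minus early test with centred libraries. MRPL13 differed by 0.75 ± 0.15 (SE; limma adjusted p = 6.12e-05) from an early range of 4.75 to 5.40 to a late range of 5.37 to 6.31, and by 0.30 when centred (adjusted p = 0.082). MRP13 differed by 0.72 ± 0.13 (limma adjusted p = 3.09e-05) and by 0.27 when centred (adjusted p = 0.1), with late libraries from 4.95 to 6.06 that overlapped the early ones (4.63 to 5.32). MRPL16, the counterpart of bacterial L16 near the peptidyl transferase centre, reached its level by the middle window, from 5.27, 5.71 and 6.25 early to 5.85, 6.44 and 6.56, a middle minus early difference of 0.61 (limma adjusted p = 0.000863), or 0.35 when centred (adjusted p = 0.0457) and 0.27 outside cytosolic ribosomal protein reads (adjusted p = 0.117). MRPL36, the counterpart of bacterial L31, differed by 0.52 ± 0.12 late minus early (limma adjusted p = 0.000265) and by 0.07 when centred.

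RSM26 and MRPL39 fell under every scaling. RSM26, a small-subunit protein related to superoxide dismutases, had 6.61 log2 RPM at 0 min, a median of 6.89 early (6.42 to 7.24) and 6.43 late (6.13 to 6.70), with overlap. It fell by 0.41 ± 0.11 (SE; limma adjusted p = 0.00196), and the centred difference was −0.86. MRPL39, the counterpart of bacterial L33 and the shortest member by coding length (213 bases), was at 6.62 at 0 min, at 6.82, 6.96 and 7.15 early, at 6.75, 6.92 and 7.11 in the middle window and at 6.41, 6.64 and 6.79 late. Its late libraries all lay below its early ones, the only member of which this was true (1.49%; all genes 4.03%). It fell by 0.37 ± 0.08 (limma adjusted p = 0.000232) and the centred difference was −0.82.

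MRP1, the partner of RSM26 in the small subunit and likewise related to superoxide dismutases, had a difference of 0.11 in deposited RPM (limma adjusted p = 0.339) and −0.34 when centred (adjusted p = 0.0086). MRPS8 differed by −0.29 ± 0.14 (limma adjusted p = 0.0647), a value that passed the threshold without the 255 or without the 315 min library (adjusted p down to 0.0178), and by −0.74 when centred. MRPL20, a mitochondria-specific protein of the large subunit, differed by −0.14 (adjusted p = 0.211), or −0.59 when centred. MRPL22, the counterpart of bacterial L22 at the exit tunnel, had a median of 6.61 early, 6.17 in the middle window and 6.53 late. Its middle minus early difference was −0.34 (limma adjusted p = 0.00992; −0.61 when centred) and its late minus early difference −0.12 (adjusted p = 0.331; −0.57 when centred, adjusted p = 0.00019). The late minus middle difference of MRPL22 did not pass (limma adjusted p = 0.129; 0.857 when centred).

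Other members with well-described places in the ribosome showed smaller differences, all in deposited log2 RPM first. MRP20, the counterpart of bacterial L23 beside the exit tunnel, differed late minus early by 0.60 (limma adjusted p = 0.00151; 0.14 when centred), with 7 early libraries and 17 reads at 0 min. MRP10, a protein with a twin CX9C motif, differed by 0.30 (adjusted p = 0.0129; −0.15 when centred), and MRPS12, the counterpart of bacterial S12 in the decoding centre, by 0.27 (adjusted p = 0.0138; −0.18 when centred). IMG2 differed by 0.37 (adjusted p = 0.0202; −0.08 when centred), and IMG1, the counterpart of bacterial L19, by −0.07 (adjusted p = 0.522; −0.52 when centred). The differences of MRP7, the counterpart of bacterial L27 (0.19; −0.26 when centred), of MRPL32, whose maturation by the m-AAA protease is known in yeast (0.23; −0.22), and of RSM23, the counterpart of the animal death-associated protein DAP3 (0.20; −0.24), did not pass limma's threshold in deposited RPM. MRP7 passed without the 15 or without the 315 min library (adjusted p down to 0.0195) and MRPL32 without the 345 min library (0.0241). MRPL4, too sparsely listed to be tested, had 16 reads at 0 min.

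The late minus early differences of the other genes with the largest steps from 0 min were as follows, MRPL13 and MRP13 being given above. RSM7 differed late minus early by 0.31 (limma adjusted p = 0.00329; −0.14 when centred), and MRPL25 by 0.17 (adjusted p = 0.232, and 0.0427 without the 360 min library; −0.28 when centred). YML6 differed by 0.06 (adjusted p = 0.714; −0.36 when centred) over 8 early and 4 late libraries. It had no value at 255, 330, 345 and 360 min, where the floor was 4.61 to 4.88 log2 RPM. Its late mean therefore leaves out levels under the floor. MRPS35 differed by 0.44 (adjusted p = 0.0183; −0.01 when centred), and this call was lost without the 105 min library (adjusted p = 0.0509).

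**Figure D4:**
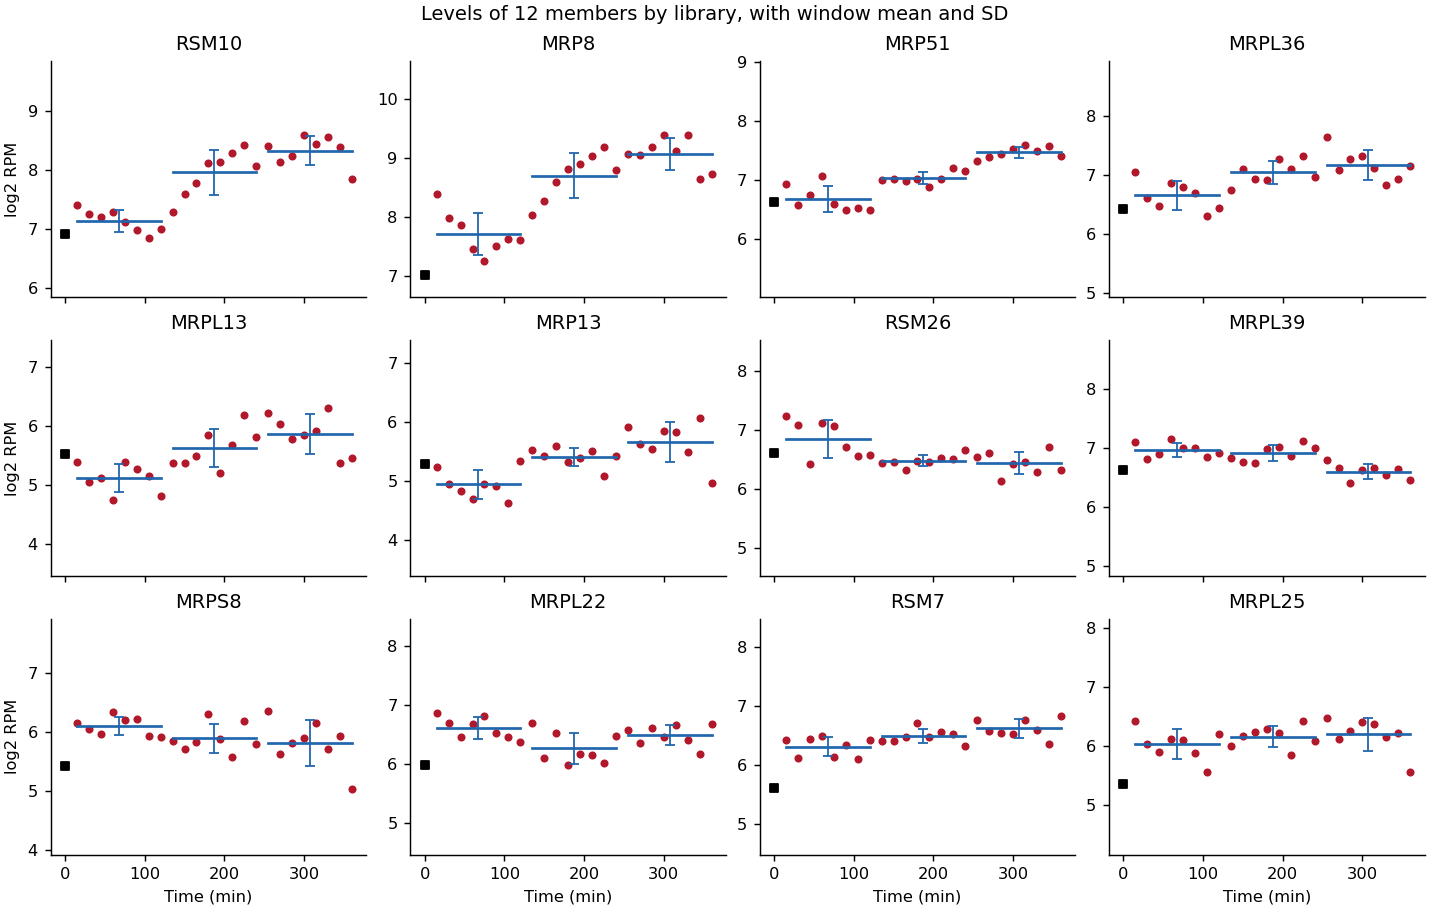
Level (log2 RPM) of 12 members in each library against time; the black square is 0 min, red points are no-phosphate libraries, and blue lines and bars are the mean and SD of each window (n = 8). RSM10, MRP8 and MRP51 were higher late than early without overlap and MRPL39 lower without overlap in this scale. These differences had the same sign under every scaling. At 0 min MRP8, MRPL39, MRPS8, MRPL22, RSM7 and MRPL25 lay lower than in any of their early libraries.

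Between neighbouring windows fewer members passed. From early to middle, 17 members rose (25.4%, all genes 48.2%) and 2 fell (2.99%, all genes 7.81%) in deposited RPM. The member median was 0.12 against 0.28 for all genes. With centred libraries 3 members were higher (4.48%, all genes 19.2%) and 17 lower (25.4%, all genes 18.9%), around a median of −0.14. Scaled to reads outside cytosolic ribosomal protein genes, 2 were higher (2.99%, all genes 14.8%) and 24 lower (35.8%, all genes 23.2%). No member differed by 1 or more from early to middle in either direction (all genes 4.51% higher and 2.81% lower). From middle to late, 5 rose (all genes 20.1%) and 1 fell (all genes 4.79%), with a median of 0.12 against 0.18; the median was −0.07 when centred. With centred libraries 2 members were higher late than in the middle window (all genes 5.23%) and 1 was lower (all genes 9.58%), and outside cytosolic ribosomal protein reads 2 were higher (all genes 8.2%) and 1 lower (all genes 6.82%). None differed by 1 or more (all genes 0.714% higher and 0.0921% lower). A spline over time was significant for 40 members (59.7%; all genes 78.7%), and 2 had a fitted range of at least 1 (all genes 32.2%). In deposited log2 RPM the median SD over the 24 libraries was 0.262 for members and 0.363 for all genes.

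**Figure D5:**
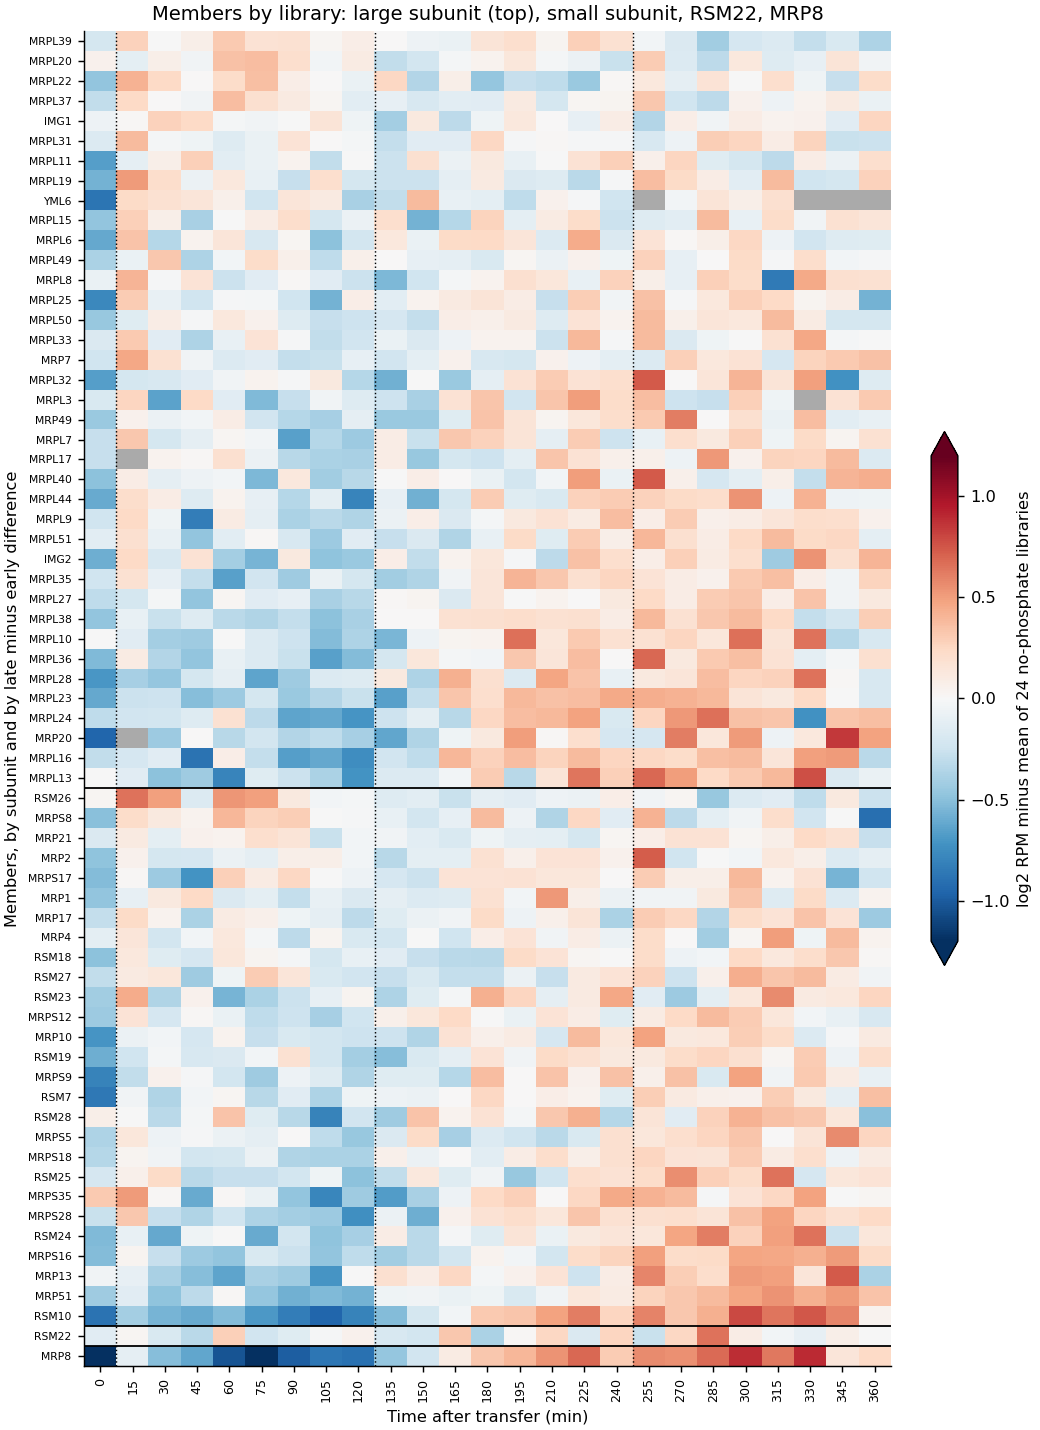
Each member (rows, large subunit, small subunit, RSM22 and MRP8, ordered within each by late minus early difference) in each library (columns, min after transfer), as log2 RPM minus the gene's mean over the 24 no-phosphate libraries; grey marks a missing value and colours are capped at the ends of the scale. Most rows are lower at 0 min, and a late minus early difference of at least 1 is reached by RSM10 and MRP8 only; centred libraries turn the median late minus early difference of the members from 0.29 to −0.17.

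Many genes of the rest of the mitochondrial translation system rose in deposited RPM, as did genes of mitochondrial transcription and DNA maintenance. When centred, the median turned negative for the mitoribosomal proteins with other names. In deposited RPM from early to late, 5 of 9 mitoribosomal proteins with other names rose (median 0.37), as did 12 of 14 translation factors (0.55), 5 of 7 synthetases (0.63), 11 of 12 translational activators (0.62) and 6 of 7 genes of mitochondrial transcription and DNA maintenance (0.69), beside 63.8% of all genes. None of them fell in deposited RPM (all genes 7.32%). Genes of the lists with too few values to be tested are left out of these counts. When centred, the medians were −0.07, 0.10, 0.17, 0.17 and 0.24, the genes called higher were 1, 6, 2, 5 and 2 in the same order (all genes 25.3%), and 1 gene of each list was called lower (all genes 25%). The first group includes PPE1, an esterase also assigned to the small subunit, which differed by 1.11 (limma adjusted p = 3.11e-07; 0.65 when centred), MHR1 (0.47; 0.02 when centred) and SWS2 (0.42; −0.03 when centred). PET494, a translational activator of COX3 mRNA, was the largest named change at 1.62 ± 0.17 (limma adjusted p = 1.4e-08; 1.17 when centred), over 6 early and 6 late libraries. The other early and late libraries had no value for PET494, so both means leave out levels under the reporting floor and may be too high. That floor was higher late (median 4.61 log2 RPM) than early (3.45), so the size of this difference is uncertain. AEP1 and AEP3, both needed for ATP synthase mRNAs of mitochondria, each differed by 1.03, the elongation factor gene MEF2 by 1.02, the rRNA methyltransferase gene MRM1 by 1.01, and the tRNA modification gene MTO1 by 0.86. The synthetase genes MSW1, MSF1 and MSE1 differed by 0.92, 0.90 and 0.66. When centred, the differences from AEP1 to MSE1 were, in the same order, 0.57, 0.57, 0.57, 0.55, 0.40, 0.46, 0.45 and 0.21. MSE1 did not pass limma's threshold when centred (adjusted p = 0.251). MTO1, MSF1 and MSE1 did not pass it outside cytosolic ribosomal protein reads (limma adjusted p = 0.0615, 0.0566 and 0.282).

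The nuclear genes of the complexes that these ribosomes serve had larger differences. Of the 34 tested nuclear respiratory chain and ATP synthase genes, 33 rose and 1 fell from early to late. Their median was 1.07, or 0.62 when centred. Cytosolic ribosomal protein genes did the reverse, with 135 of 136 lower and a median of −1.93, or −2.38 when centred. Ribosome biogenesis genes had a median of −0.54 from 0 min to early, −0.38 from early to middle and 0.43 from middle to late. The members had medians of 0.24, 0.12 and 0.12 for the same steps in deposited RPM, and of 0.19, −0.14 and −0.07 when centred. When centred, the ribosome biogenesis medians were −0.61 from 0 min to early and −0.64 from early to middle. Their late minus early median was 0.10 in deposited RPM and −0.35 when centred. Genes outside the members that carry the Puf3-type motif (632) had a late minus early median of 0.44, against 0.46 for those without it (3569), and an early minus 0 min median of 0.13 against 0.06; these were not tested.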

How the data were processed

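Per the submitters' processing notes, reads were aligned with Bowtie to build R64; no source used here names the read counter or annotation, or says whether strand was used. The authors deposited log2 values, which were not ratios to 0 min as the design text has it: they summed to 1000000 per library after exponentiation and were taken as log2 RPM. At a tolerance of 0.02 reads, 93.6 to 94.4% were whole reads, so no count model was fitted. Genes with values in at least 20 of 24 libraries were tested with limma 3.58.1 (R 4.3.3; trend and robust, two-sided, Benjamini-Hochberg over 4343 genes). The members and lists were chosen with earlier results of these data known. Named members were the 5 highest and 5 lowest late minus early, the 3 highest and 3 lowest early minus 0 min and middle minus early, and 16 by role; up to 3 genes were named per other list. Annotation was matched for 69 of 69 rule names. MRP4, MRPL19 and MRPL51 overlap an annotated gene without values. Single-library intervals and shares cover counting error only. Alternatives covered scaling, missing values, pseudocount, variance model, windows and left-out libraries. The fit was tested on simulated data.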

Additional observations from a re-analysis of the deposited data

Results flagged for a closer look

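In 4 of the 92 groups of libraries examined, 1 library lay far from the other 7 of its window; chance flags about 1 in 20 groups. In the late window the lowest library of MRPL25 was 5.56 log2 RPM at 360 min, with the next at 6.12. MRPL16 was lowest at 360 min too (5.84, next 6.30), and IMG2 was lowest at 315 min (5.48, next 5.99). In the middle window the median member stood 0.488 log2 below the median gene at 240 min (−0.488, next −0.339).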

How the results depend on the processing

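Scaling decided the direction of the member medians. With centred libraries the medians were −0.17 for late minus early, −0.068 from middle to late and −0.14 from early to middle, and scaled to reads outside cytosolic ribosomal protein genes they were −0.17, −0.0089 and −0.22. Late minus middle calls were 3 under both scalings against 6. The early minus 0 min median was 0.19 centred, 0.12 outside cytosolic ribosomal protein reads, 0.32 with 15 to 60 min as early and 0.20 without 15 min. Without the 15, 345 and 360 min libraries the window medians were 0.33, 0.16 and 0.16 in the same order, and without the first and last library of each window the middle minus early median was 0.18. Shares of reads outside cytosolic ribosomal protein genes were 0.817% at 0 min, 0.895%, 0.797% and 0.822%. Late minus early differences of named genes that changed sign were, centred and then outside cytosolic ribosomal protein reads, −0.36 and −0.42 for YML6 (−0.025 with missing values at the floor), −0.14 and −0.15 for RSM7, −0.28 and −0.30 for MRPL25, −0.0084 and −0.023 for MRPS35, −0.26 and −0.27 for MRP7, −0.22 and −0.23 for MRPL32, −0.080 and −0.095 for IMG2, −0.18 and −0.20 for MRPS12, −0.34 and −0.35 for MRP1, −0.24 and −0.26 for RSM23, −0.15 and −0.17 for MRP10, −0.30 and −0.32 for RSM22, and −0.025 and −0.040 for SWS2. Leaving out 1 library at a time gave medians of 0.26 to 0.30 for late minus early, 0.10 to 0.17 for middle minus early, 0.10 to 0.15 for late minus middle and 0.20 to 0.31 for early minus 0 min, and 32 to 39, 14 to 24 and 4 to 9 called members in the window comparisons. The causes were not tested. No paired analysis was possible because each time point has 1 library and the labels carry no replicate numbers. Late libraries were shallower, so their floor was higher.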
